A study of Mus musculus with 32 samples.

Results

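The sarcomeric myosin chains of skeletal muscle were examined in libraries from neuromuscular junction (NMJ) regions and extra-synaptic (xNMJ) regions of the tibialis anterior (TA) muscle. The genes were chosen by name and comprised 6 heavy chains (Myh1, Myh2, Myh3, Myh4, Myh7 and Myh8) and 4 light chains (Myl1, Myl2, Myl3 and Mylpf). Of these 10 genes, 9 were found among the 24952 genes of the tables, and Myh3 was not analysed here. CPM is the count scaled to the library total. Genes that reached 1 CPM in 8 or more libraries were tested, which left 13990 genes, among them 8 of the 10. Myl2 did not pass and is given by its values only. All mice were male, wild-type C57BL/6JRj animals kept in single cages on AIN93M diet, and none carried a transgene or received a drug. The 4 groups, of 8 libraries each, were the xNMJ and NMJ regions of animals of 10 months (10m) and of 30 months (30m). Each library pooled regions captured by laser from cross sections of muscle labelled with α-bungarotoxin, a toxin that binds the acetylcholine receptors of the endplate.

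A myosin molecule is built from heavy chains, which carry the motor and the rod of the thick filament, and from essential and regulatory light chains wrapped around the lever arm. In adult limb muscle a fibre is typed by its heavy chain. Myh7 marks slow type I fibres, Myh2 fast oxidative type IIa fibres, Myh1 type IIx fibres and Myh4 the fastest, glycolytic type IIb fibres. Myh3 and Myh8 encode the embryonic and neonatal chains of developing and regenerating muscle. Mylpf and Myl1 encode the regulatory and essential light chains of fast fibres, whereas Myl2 and Myl3 encode their slow counterparts. The mouse TA is a fast muscle dominated by type IIb and IIx fibres.

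Myh3 (chr11:67078300-67102291), Myh2 (chr11:67171027-67197517), Myh1 (chr11:67200052-67224575), Myh4 (chr11:67238029-67260446) and Myh8 (chr11:67277124-67308634) lie in this order on the plus strand of chromosome 11 (GRCm38, GENCODE M21). Myh7 lies on the minus strand of chromosome 14 (chr14:54970684-54994626). The light chain genes are spread over 4 chromosomes, with Myl1 at chr1:66924295-66945404, Myl2 at chr5:122100951-122113472, Myl3 at chr9:110741861-110769798 and Mylpf at chr7:127208890-127214298. RefSeq promoter windows were matched for 10 of the 10 genes, and the 250 bases before each annotated start were searched. The promoters of the 4 clustered genes Myh2, Myh1, Myh4 and Myh8, which include the chains that carry nearly all heavy chain reads in these libraries, shared an identical run of 14 bases (TTCTAATTATATCC). The windows are shown 5′ to 3′, from 20 bases before the run to at most 80 bases after it, with the shared run in capitals (RefSeq, GRCm38.p6).
Myh2 promoter (chr11:67170882-67170995, + strand): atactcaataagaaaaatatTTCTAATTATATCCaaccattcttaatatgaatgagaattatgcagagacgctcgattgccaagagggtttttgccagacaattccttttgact
Myh1 promoter (chr11:67199922-67200035, + strand): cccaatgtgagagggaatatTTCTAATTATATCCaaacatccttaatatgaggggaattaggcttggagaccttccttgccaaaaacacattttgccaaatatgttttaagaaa
Myh4 promoter (chr11:67237634-67237747, + strand): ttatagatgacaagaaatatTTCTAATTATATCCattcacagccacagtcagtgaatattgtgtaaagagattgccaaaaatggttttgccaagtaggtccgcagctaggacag
Myh8 promoter (chr11:67277050-67277123, + strand): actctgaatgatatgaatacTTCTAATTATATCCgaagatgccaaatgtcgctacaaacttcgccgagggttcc
The run ended 111, 146, 144 and 40 bases before the RefSeq start of Myh2, Myh1, Myh4 and Myh8, respectively. Because it was picked as the longest run common to these 4 promoters, its presence in them follows from that choice. Searched on both strands, the run was present in 4 of 32851 promoter windows (0.0122%), those of these 4 genes, and it was not found in the windows of Myh3, Myh7 or the light chains. This is a match of letters and says nothing about which factor binds there.

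The clustered heavy chains are also similar within their coding sequence, which bears on how their reads were divided. Of the 31-base windows in the counted Myh8 transcript, 17.4% were also present in Myh1 and 15.3% in Myh4, and at 50 bases these shares were 9.56% and 9.31%. The longest identical coding runs between Myh8 and the abundant fast chains Myh1 and Myh4 are shown because a read that falls within them cannot be assigned to one gene. In capitals are the 22 bases that occur in both runs and thus in all 3 genes.
Myh8 and Myh1: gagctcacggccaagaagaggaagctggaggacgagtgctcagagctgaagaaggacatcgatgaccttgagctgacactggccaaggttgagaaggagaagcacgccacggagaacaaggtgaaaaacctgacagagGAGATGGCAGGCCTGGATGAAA
Myh8 and Myh4: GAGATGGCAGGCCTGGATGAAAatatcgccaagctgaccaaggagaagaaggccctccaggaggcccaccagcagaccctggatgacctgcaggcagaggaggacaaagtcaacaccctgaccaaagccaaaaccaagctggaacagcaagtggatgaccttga
The run shared with Myh1 is 160 bases long and spans exons 23 and 24 of Myh8 (chr11:67297215-67297485) and exons 22 and 23 of Myh1 (chr11:67213332-67213602). The run shared with Myh4 is 164 bases long and spans exons 24 and 25 of Myh8 (chr11:67297464-67297706) and exons 22 and 23 of Myh4 (chr11:67252200-67252559). Because the authors gave a read on several transcripts to each of them in equal parts, the values of all these heavy chains are uncertain to the extent of their shared sequence.

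Myh2 needs a separate caution. The length implied by its counts and TPM was 1489 bases (range 1471 to 1503 over 17 libraries with at least 20 counts), against 5992 bases for Myh1 and 5912 bases for Myh4. The only Myh2 transcript of support level 1 to 3 in GENCODE M21, Myh2-202 (chr11:67171066-67174622), is a retained-intron transcript of 1488 bases. It holds 434 bases of Myh2 exons and 1054 bases of intron, and covers 7.21% of the full-length mRNA. Of the 31-base windows of the full-length Myh2 mRNA, 28.4% occur in the counted transcripts of Myh1, 20% in Myh8 and 17.2% in Myh4, and 57.5% occur in none of the counted myosin heavy chains. The Myh2 values therefore describe the first exons and an intron of the gene, and its level and share below cannot be set against those of the other chains.

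The libraries held 4026648 to 10258988 counts in 10m xNMJ, 7080227 to 16516788 in 10m NMJ, 4424672 to 13182475 in 30m xNMJ and 6703228 to 16422527 in 30m NMJ. A floor of 3 counts corresponded to 0.182 to 0.745 CPM. The labels do not state whether equal replicate numbers come from one animal, so p values measure the spread between these libraries. Endplate genes separated the regions. The summed level of 6 synaptic genes (most abundant, the acetylcholine receptor subunit Chrna1) had medians of 1948 CPM (10m NMJ), 28.2 CPM (10m xNMJ), 1872 CPM (30m NMJ) and 29.2 CPM (30m xNMJ). One library stood apart, as 30m xNMJ replicate 5 held 356 CPM of synaptic RNA, and without it the same 2 myosin genes, Myh1 and Mylpf, passed the test at 30 months. The summed level of 5 Schwann cell genes moved in the same direction, with medians of 226 and 9.73 CPM at 10 months and of 210 and 9.27 CPM at 30 months. The 4 fibroblast genes did likewise, at 1315 and 111 CPM and at 1124 and 134 CPM. In edgeR on the TMM scale defined below, NMJ was higher at both ages for 6 of 6 synaptic, 5 of 5 Schwann cell and 3 of 4 fibroblast genes, and for 2 of 4 macrophage genes at 10 months and 1 at 30 months, beside 6.50% and 5.0% of all genes. None of 5 smooth muscle or 4 red blood cell genes was called, and of 3 endothelial genes 1 (Cdh5) was lower at 30 months, beside 4.25% of all genes. Thus NMJ libraries held more RNA of the Schwann cell genes and of most of the fibroblast genes. In regions captured as bulk tissue, fewer fibres of a type and less RNA per fibre cannot be told apart.

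Levels between genes were compared in TPM, which scales reads by transcript length and library total. The fast light chains ranked first, ahead of the fast heavy chains, while Myh7 and Myl2 had the lowest medians in each group. Mylpf ranged from 21499 to 44312 TPM over the 32 libraries and exceeded Myl1 (11756 to 29800 TPM) in each of them. This order depends on the implied lengths, 537 bases for Mylpf and 874 bases for Myl1. Without length scaling, the medians of Mylpf and Myl1 were 10719 and 10881 CPM (10m xNMJ) and 13635 and 15308 CPM (10m NMJ). At 30 months they were 14138 and 10757 CPM (xNMJ) and 12283 and 11716 CPM (NMJ). Myl1 in turn exceeded Myh4 (1287 to 6079 TPM) in 32 of 32 libraries, by a median of 5.09-fold. Myh4 exceeded Myh1 (585 to 2213 TPM) in 31 of 32 libraries, and the exception was 30m xNMJ replicate 6. Below them, the order of Myl3 (0.270 to 627 TPM) and Myh8 (23.5 to 57.5 TPM) held in 23 of 32 libraries, from 7 of 8 in 10m xNMJ (median ratio 6.10) to 5 of 8 in either group at 30 months. Myh7 did not exceed 3.15 TPM in any library. Myl2 was listed at 0 counts in 4 libraries of 10m xNMJ, 5 of 10m NMJ, 6 of 30m xNMJ and 5 of 30m NMJ. Its highest value was 38.3 TPM, in 10m xNMJ replicate 8.

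**Figure D1:**
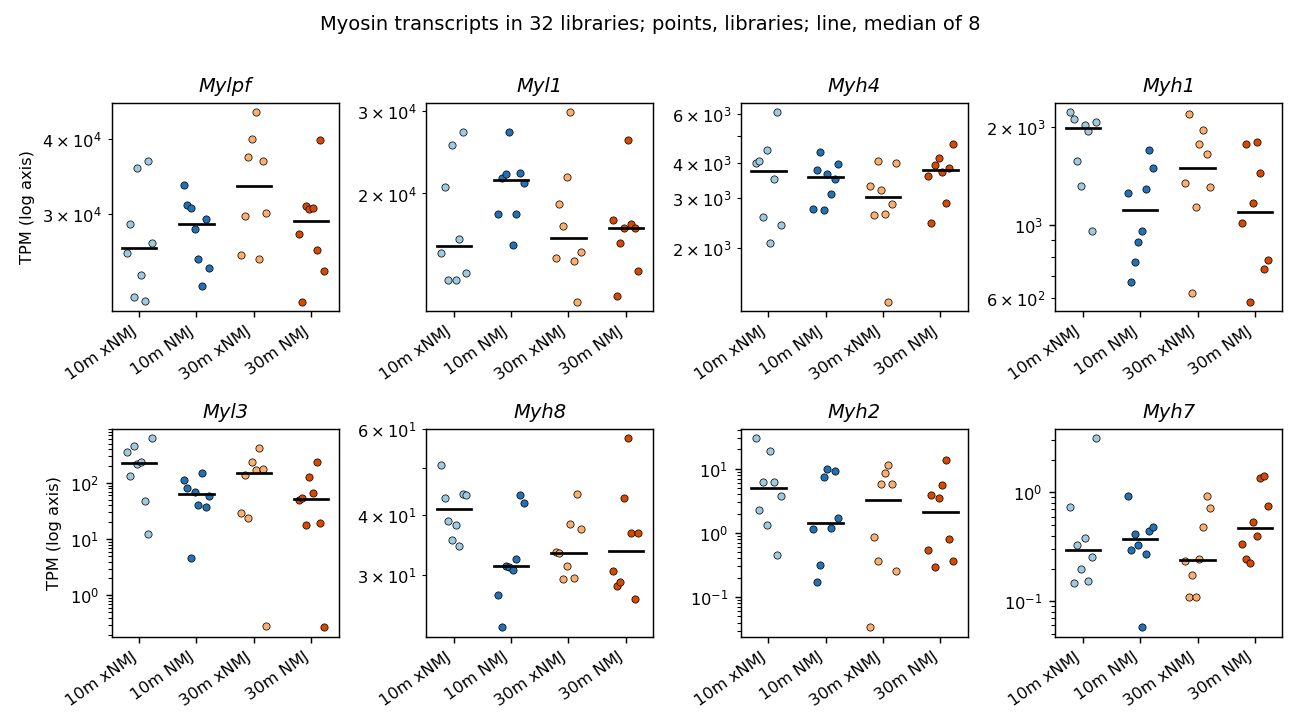
TPM (log axis) of the 8 tested myosin genes in the 4 groups, with a point for each library and a line at the median of 8. Mylpf and Myl1 are highest in every library, at 11756 TPM or more, Myl3 and Myh2 spread over more than 1 order of magnitude within each group, and the groups overlap for every gene.

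The heavy chain make-up of each library was given as the share of each chain in the summed TPM of Myh1, Myh2, Myh4, Myh7 and Myh8. In 10m xNMJ the Myh4 share had a lowest value of 49.9%, a median of 63.8% and a highest value of 85.8%. In 10m NMJ these values were 66.7%, 73.4% and 84.6%. At 30 months they were 39.1%, 66.7% and 86.2% in xNMJ and 57.7%, 77.5% and 86.5% in NMJ. The 4 groups overlapped broadly, and the spread between libraries was widest in 30m xNMJ. Myh1 made up almost all of the remainder, with medians of 35.2%, 25.7%, 32.4% and 21.8% in the order of the groups above (10m xNMJ and NMJ, then 30m xNMJ and NMJ). Within each library the Myh4 and Myh1 shares mirror each other, because together they account for more than 98% of the sum. Counting error was small beside this spread, since the 95% Wilson interval of the Myh4 share of heavy chain counts spanned at most 0.771 percentage points in any library. Such intervals cover counting error only.

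**Figure D2:**
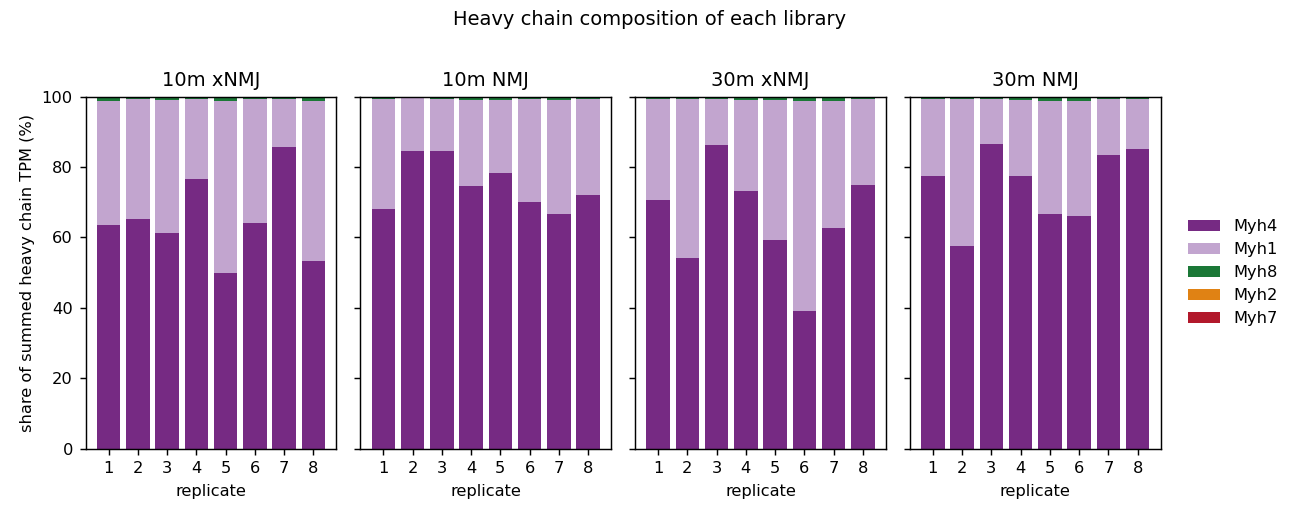
Share of each heavy chain in the summed heavy chain TPM (%), 1 bar per library, with 8 replicates in each of the 4 groups. Myh4 and Myh1 fill nearly the whole bar, Myh8 forms a thin cap of 0.523 to 1.03%, and Myh2 and Myh7 are too small to see.

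The Myh4 share averaged 74.9% ± 7.0 (SD, n = 8) in 10m NMJ and 65.0% ± 11.6 in 10m xNMJ. The difference of 9.90 percentage points did not pass the threshold (exact permutation over libraries, two-sided, p = 0.0594, adjusted to 0.594 for 5 chains in 4 comparisons, 20 tests in all). At 30 months the means were 75.03% ± 10.5 (SD, n = 8) and 65.0% ± 14.5, a difference of 9.99 percentage points (exact permutation p = 0.137, adjusted p = 0.683). The Myh1 share was lower in NMJ by the converse amounts, -9.75 points for the younger mice (p = 0.0584 by exact permutation, adjusted p = 0.594) and -9.94 points for the older (p = 0.134 by exact permutation, adjusted p = 0.683). Age left the mean shares nearly in place, with a difference between 30 and 10 months of 0.124 points for Myh4 in NMJ and 0.0332 points in xNMJ (exact permutation p = 0.978 and 0.996). No share of any chain passed this unpaired test in any of the 4 comparisons, and the smallest p value that the design allows is 0.000155. The labels do not state that same-numbered libraries are pairs. Treated as pairs, the Myh4, Myh1 and Myh7 shares passed at 30 months (sign-flip, exact permutation p = 0.0078, adjusted p = 0.026 over fewer tests).

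The slow chain Myh7 formed a share of 0.00124 to 0.0696%, and the highest value belonged to 10m xNMJ replicate 8. This library held 118 Myh7 counts, whereas the other 7 of its group held 3 to 13. It was also the highest in its group for Myl2 (135 counts, against 0 to 5) and for Myl3 (3393 counts). The 3 slow chain genes were thus high in the same library. Myh2, as far as it was counted, formed a share of 0.000715 to 0.477%. Multiplying its TPM by 3.43, the length of Myh2-202 over its exonic part, changed no call.

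Next, the regions were compared gene by gene with edgeR's quasi-likelihood test on counts scaled by TMM (trimmed mean of M values), with Benjamini-Hochberg adjustment over 13990 genes. Myh1 was lower in NMJ than in xNMJ at both ages on this scale. Its TMM-scaled level had a lowest value of 5668, a median of 10465 and a highest value of 13539 CPM in 10m xNMJ, against 2643, 4485 and 7179 CPM in 10m NMJ. Each NMJ library lay below the xNMJ median, and 6 of 8 lay below every xNMJ library. The difference was 2.14-fold (log2 fold change -1.10, SE 0.27, adjusted p = 0.0051). At 30 months the values were 3764, 8446 and 15137 CPM in xNMJ and 2120, 4110 and 8472 CPM in NMJ. Here 7 of 8 NMJ libraries lay below the xNMJ median, 3 of them below every xNMJ library, and the log2 fold change was -0.96 (SE 0.27, adjusted p = 0.018). Without 30m xNMJ replicate 2 this call was lost (log2 fold change -0.81, adjusted p = 0.057).

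Myh4 did not pass the test at either age. Its TMM-scaled level had a lowest value of 11464, a median of 18852 and a highest value of 35527 CPM in 10m xNMJ, and of 11522, 14773 and 18386 CPM in 10m NMJ. At 30 months the values were 6927, 18205 and 24228 CPM in xNMJ and 9145, 14516 and 17955 CPM in NMJ. The groups overlapped, although all 8 NMJ libraries lay below the xNMJ median at each age. The log2 fold change was -0.54 (SE 0.22, adjusted p = 0.11) at 10 months and -0.31 (SE 0.21, adjusted p = 0.45) at 30 months in edgeR.

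The direction and the calls of these comparisons depended on how libraries were scaled. TMM factors were 0.686 to 1.02 in xNMJ and 1.12 to 1.35 in NMJ libraries, so that TMM lowers every NMJ value relative to every xNMJ value. Library totals without TMM factors moved the median of all tested genes to 0.56 at 10 months and 0.61 at 30 months on the log2 scale, and scaling to 8 general fibre genes moved it to 0.68 and 0.69. On library totals Myh1 stood at -0.56 (adjusted p = 0.13) and -0.34 (adjusted p = 0.38) at 10 and 30 months, and Myh4 turned to 0.018 and 0.32. Scaled to general fibre genes, Myh1 stood at -0.45 (adjusted p = 0.31) and -0.22 (adjusted p = 0.64), and Myh4 at 0.22 and 0.42. No myosin gene passed the test in edgeR on these 2 scales, and both placed Myh1 below and Myh4 above 0.

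**Figure D3:**
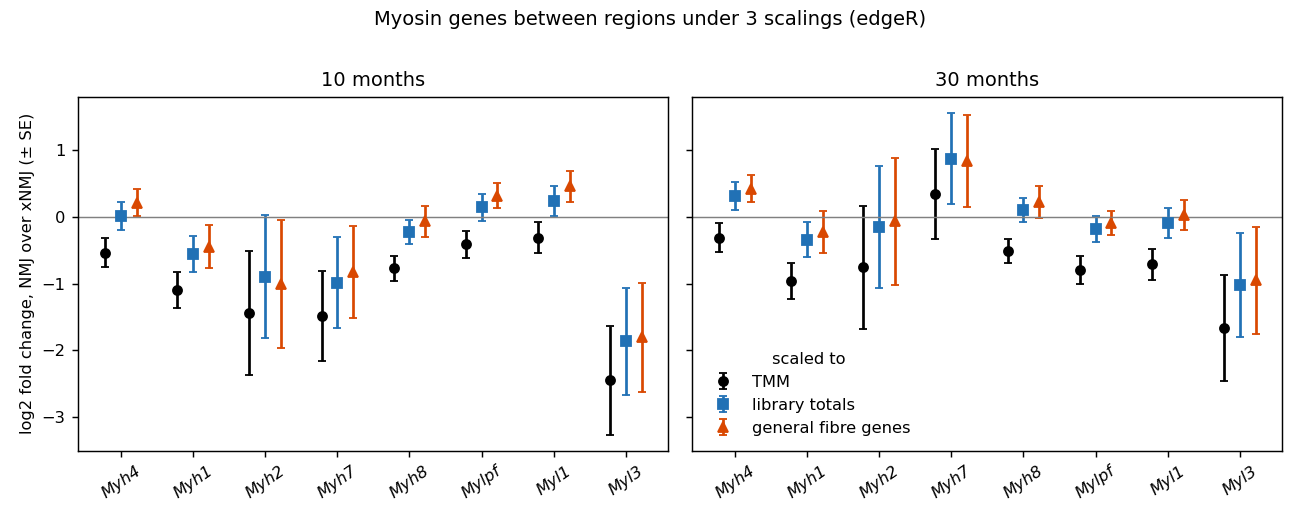
Log2 fold change of NMJ over xNMJ (± SE from edgeR, 8 libraries per group) for 8 myosin genes at 10 and 30 months, scaled by TMM (circles), library totals (squares) or general fibre genes (triangles). With TMM nearly all points lie below 0, whereas on the other 2 scales Myh4 lies at or above 0 and Myh1 remains below it.

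Myhas, an antisense gene on the minus strand that begins just before Myh4 and ends within the span of Myh1 (chr11:67211256-67237573), was lower in NMJ at both ages on the TMM scale, with log2 fold changes of -1.41 (SE 0.26, adjusted p = 2.4e-04) and -1.33 (SE 0.26, adjusted p = 6.7e-04). On library totals it stood at -0.87 (adjusted p = 0.014) and -0.68 (adjusted p = 0.052). Of its 1716 exon bases, 515 lie in exons of Myh1. The libraries did not keep strand, so reads from this overlap cannot be told apart between both genes. Its counts equalled 16.1 to 52.7% of the Myh1 counts, with a median of 42.7% in 10m xNMJ and of 35.3% in 10m NMJ.

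Among the scarcer adult chains, Myh2 had a TMM-scaled lowest value, median and highest value of 0.692, 6.84 and 38.8 CPM in 10m xNMJ and of 0.227, 1.61 and 10.6 CPM in 10m NMJ. At 30 months these were 0, 4.42 and 15.4 CPM in xNMJ and 0.258, 1.99 and 13.4 CPM in NMJ. The groups overlapped, and edgeR gave log2 fold changes of -1.44 (SE 0.93, adjusted p = 0.38) and -0.76 (SE 0.92, adjusted p = 0.71). With 1 library left out they ran from -1.79 to -0.86 (without 10m xNMJ replicate 1) and from -1.46 to -0.42 (without 30m xNMJ replicate 6). Myh7, the slow chain, had medians of 1.46 CPM (10m xNMJ), 1.28 CPM (10m NMJ), 1.35 CPM (30m xNMJ) and 1.57 CPM (30m NMJ). Its log2 fold change was -1.49 (SE 0.68, adjusted p = 0.18) at 10 months and 0.34 (SE 0.67, adjusted p = 0.84) at 30 months. Without 10m xNMJ replicate 8 the former value was -0.091 (adjusted p = 0.95), and DESeq2 gave -0.047 with all libraries.

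The neonatal chain Myh8 had TMM-scaled values of 174, 253 and 294 CPM (lowest, median and highest) in 10m xNMJ and of 94.9, 129 and 203 CPM in 10m NMJ. There 6 of 8 NMJ libraries lay below every xNMJ library. The difference was 1.71-fold on the TMM scale (log2 fold change -0.77, SE 0.18, adjusted p = 0.0037 in edgeR), and -0.22 (adjusted p = 0.42) on library totals. At 30 months the values were 166, 211 and 270 CPM in xNMJ and 109, 125 and 288 CPM in NMJ. Here 7 of 8 NMJ libraries lay below every xNMJ library and 30m NMJ replicate 5 lay above all of them. The TMM-scaled log2 fold change was -0.51 (SE 0.18, adjusted p = 0.080), it reached -0.72 (adjusted p = 0.0027) without that replicate, and it turned to 0.10 (adjusted p = 0.72) on library totals. With a replicate block, a pairing that the labels do not state, it was -0.57 (adjusted p = 0.014 in edgeR).

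Myh8 counts were also set against those of Myh1 and Myh4. They equalled 0.638 to 1.01% of the summed Myh1 and Myh4 counts in 10m xNMJ, 0.546 to 0.896% in 10m NMJ, 0.652 to 1.01% in 30m xNMJ and 0.605 to 1.09% in 30m NMJ. The proportion thus varied 2.00-fold over the 32 libraries, beside 2.53-fold for heavy chain counts as a percentage of all counts. How much of the Myh8 count came from reads in the shared runs shown above was not tested. Markers of satellite cells and regenerating fibres had a median summed level of 137 CPM (NMJ) against 34.3 CPM (xNMJ) at 10 months, and of 158 against 19.3 CPM at 30 months. Of 8 such genes, 5 passed the filter and 2 were higher in NMJ at both ages in edgeR (beside 6.50% and 5.0% of all genes), Ncam1 (log2 fold change 4.44, SE 0.43, adjusted p = 5.1e-09 at 10 months) and Myog (3.02, SE 0.99, adjusted p = 0.042). Ncam1, an adhesion molecule also found at endplates and in Schwann cells, was the most abundant of them, and made up most of the NMJ sum, with medians of 118 CPM (NMJ) against 4.59 CPM (xNMJ) at 10 months and of 127 against 4.86 CPM at 30 months. The higher sum in NMJ thus follows Ncam1 and is no measure of satellite cells or regenerating fibres. Pax7, Myod1 and Cdh15 were also tested and were not among the genes higher at both ages. Myog, a factor of differentiating muscle, had a median of 1.97 CPM in 10m NMJ, against 0 in 10m xNMJ. Over a median of 0 the Myog fold change has no exact size. Myog may also have passed the filter through NMJ libraries alone, so nothing is concluded from its call. The fusion genes Mymk and Mymx had medians of 0 CPM in every group, apart from 0.0458 CPM for Mymx in 30m NMJ. The part of these markers in the Myh8 values was not tested.

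**Figure D4:**
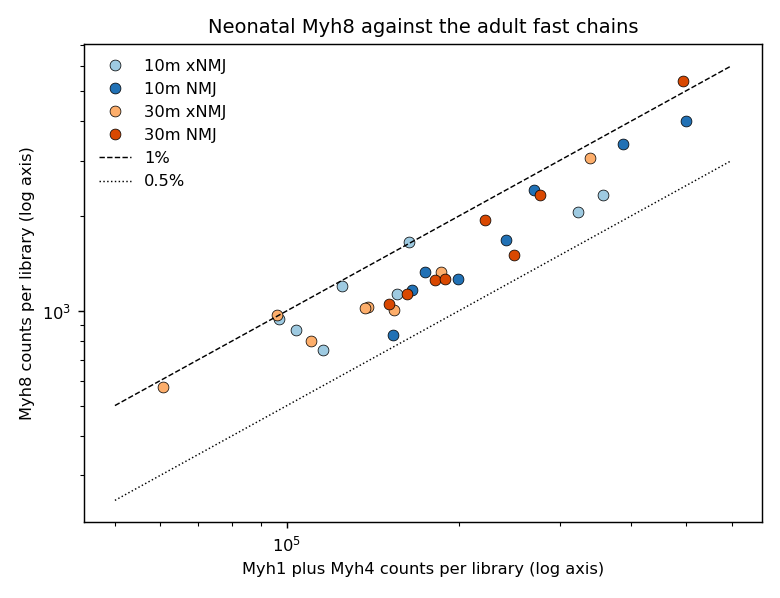
Myh8 counts against the sum of Myh1 and Myh4 counts in each of 32 libraries (both axes log), coloured by group, with lines at 1% and 0.5%. All libraries lie between 0.546 and 1.09%, in each group.

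Of the light chains, Mylpf was lower in NMJ at 30 months on the TMM scale. Its values were 12019, 17509 and 28555 CPM (lowest, median and highest) in 30m xNMJ and 7055, 9948 and 15590 CPM in 30m NMJ. All 8 NMJ libraries lay below the xNMJ median and 6 lay below every xNMJ library. The difference was 1.73-fold (log2 fold change -0.79, SE 0.21, adjusted p = 0.0086 in edgeR), but -0.18 (adjusted p = 0.54) on library totals and -0.087 (adjusted p = 0.76) when scaled to general fibre genes. At 10 months the values were 9121, 12850 and 22583 CPM in xNMJ and 7739, 10901 and 12915 CPM in NMJ, and the log2 fold change was -0.41 (SE 0.20, adjusted p = 0.23), turning to 0.14 on library totals.

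Myl1 did not pass the test at either age. Its log2 fold change was -0.31 (SE 0.23, adjusted p = 0.47) at 10 months and -0.71 (SE 0.23, adjusted p = 0.0502 in edgeR) at 30 months, while on library totals it was 0.24 and -0.092. The 30-month value passed in DESeq2 (adjusted p = 0.029), with insert size as a covariate (-0.81, adjusted p = 0.015) and in 9 of 32 fits that left out 1 library. It also passed in edgeR with a replicate block (-0.68, adjusted p = 0.0056), a pairing that the labels do not state. The ratio of Mylpf to Myl1 TPM had medians of 1.54 (xNMJ) and 1.37 (NMJ) at 10 months and of 1.81 (xNMJ) and 1.77 (NMJ) at 30 months, and the groups overlapped. The size of this ratio depends on the implied lengths of both genes.

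Myl3, the slow essential light chain, differed widely between libraries of each group. Its TMM-scaled lowest value, median and highest value were 11.8, 209 and 604 CPM in 10m xNMJ and 2.99, 42.8 and 83.7 CPM in 10m NMJ. Each NMJ library lay below the xNMJ median, but the groups overlapped. The log2 fold change was -2.45 (SE 0.82, adjusted p = 0.046 in edgeR) and did not pass on library totals (-1.87, adjusted p = 0.092), when scaled to general fibre genes (-1.81, adjusted p = 0.10) or in 15 of 32 fits that left out 1 library. The call was lost among others without 10m xNMJ replicate 8 (-2.07, adjusted p = 0.11). At 30 months the values were 0.222, 140 and 349 CPM in xNMJ and 0.110, 30.5 and 141 CPM in NMJ, with a log2 fold change of -1.67 (SE 0.80, adjusted p = 0.22). Replicate 8 of both regions held 1 Myl3 count, whereas the other libraries at 30 months held 108 to 1865. The slow light chains Myl2 and Myl3 together made up 0.000716 to 1.62% of light chain TPM.

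In all, 3 of the 8 tested myosin genes were lower in NMJ at 10 months (Myh1, Myh8 and Myl3) and 2 at 30 months (Myh1 and Mylpf), and none was higher. In the background, 5.05% of all tested genes were lower and 6.50% higher at 10 months, and 4.25% and 5.0% at 30 months. The median log2 fold change of the 8 was -0.94 at 10 months and -0.73 at 30 months, beside 0.0036 and -0.014 over all genes. At an unadjusted p under 0.05, 5 of the 8 genes were counted at each age, beside 3192 of all 13990 genes at 10 months and 2898 at 30 months. On library totals and with fibre scaling 0 of 8 passed in edgeR (at an unadjusted p under 0.05, Myh1 and Myl3 at 10 months on library totals, and Myl3 at 10 months and Myh4, higher, at 30 months with fibre scaling), while the calls over all genes moved from 909 higher and 706 lower at 10 months to 2659 and 210 on library totals and to 3349 and 174 with fibre scaling. At 30 months the same calls moved from 700 and 595 to 2687 and 76 and to 2977 and 37. Library totals and fibre scaling were thus also the settings under which few genes of any kind were called lower.

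Fast fibre genes outside the myosins were counted on the same scales. Of 12 listed genes, 11 were tested, 7 were lower in NMJ at 10 months and 5 at 30 months, and none was higher with TMM (5.05% and 4.25% of all genes were lower), beside a list median of -0.71 and -0.59. Tnnt3, the fast troponin T and the most abundant of the list, had a log2 fold change of -0.92 (SE 0.17, adjusted p = 2.2e-04) at 10 months and -1.01 (SE 0.17, adjusted p = 9.0e-05) at 30 months. The calcium pump Atp2a1 (-0.87 and -0.86), the fast troponin I gene Tnni2 (-0.80 and -0.91) and Pfkm of glycolysis (-0.92 and -0.63) were called at both ages. On library totals none of the 11 was called and the list median was -0.15 and 0.052. Pvalb, which buffers calcium in type IIb fibres, stood at -0.12 and -0.091 with TMM. It was the single gene of the list to pass with fibre scaling, where it was higher. On that scale 3349 (10 months) and 2977 (30 months) of all 13990 genes were higher. Fibre scaling raises the NMJ values of all genes, so it cannot test a call in this direction.

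Slow fibre genes outside the myosins were counted in the same way. Of 12 listed genes, 11 were tested. At 10 months 2 were higher and 1 lower, and at 30 months 1 was higher and 1 lower, beside 6.50% and 5.05%, and 5.0% and 4.25%, of all genes. The list medians were -0.61 and -0.19. Atp2a2, the calcium pump of slow fibres, was higher in NMJ, with a log2 fold change of 1.70 (SE 0.46, adjusted p = 0.011) at 10 months and 1.57 (SE 0.46, adjusted p = 0.022) at 30 months. It was also called on library totals and with fibre scaling. Those scales raise the NMJ values of all genes, so they cannot test a call in this direction. The unscaled level of Atp2a2 was 12.3 to 71.2 CPM in 10m NMJ and 0.764 to 15.6 CPM in 10m xNMJ. Casq2, the slow and cardiac calsequestrin, rose at 10 months (1.36, SE 0.40, adjusted p = 0.022) and stood at 0.40 (adjusted p = 0.64) at 30 months. Fabp3, a fatty acid carrier of oxidative fibres, was lower at both ages on the TMM scale (-1.29 and -1.55, adjusted p = 0.0050 and 0.0012) and on library totals at 30 months (-0.92, adjusted p = 0.032). Mb, the oxygen store myoglobin and the most abundant of the list, did not pass (-0.61 and -0.19). The slow troponins Tnnt1 and Tnni1 had medians of at most 1.37 CPM in any group, and Tnni1 was not tested.

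**Figure D5:**
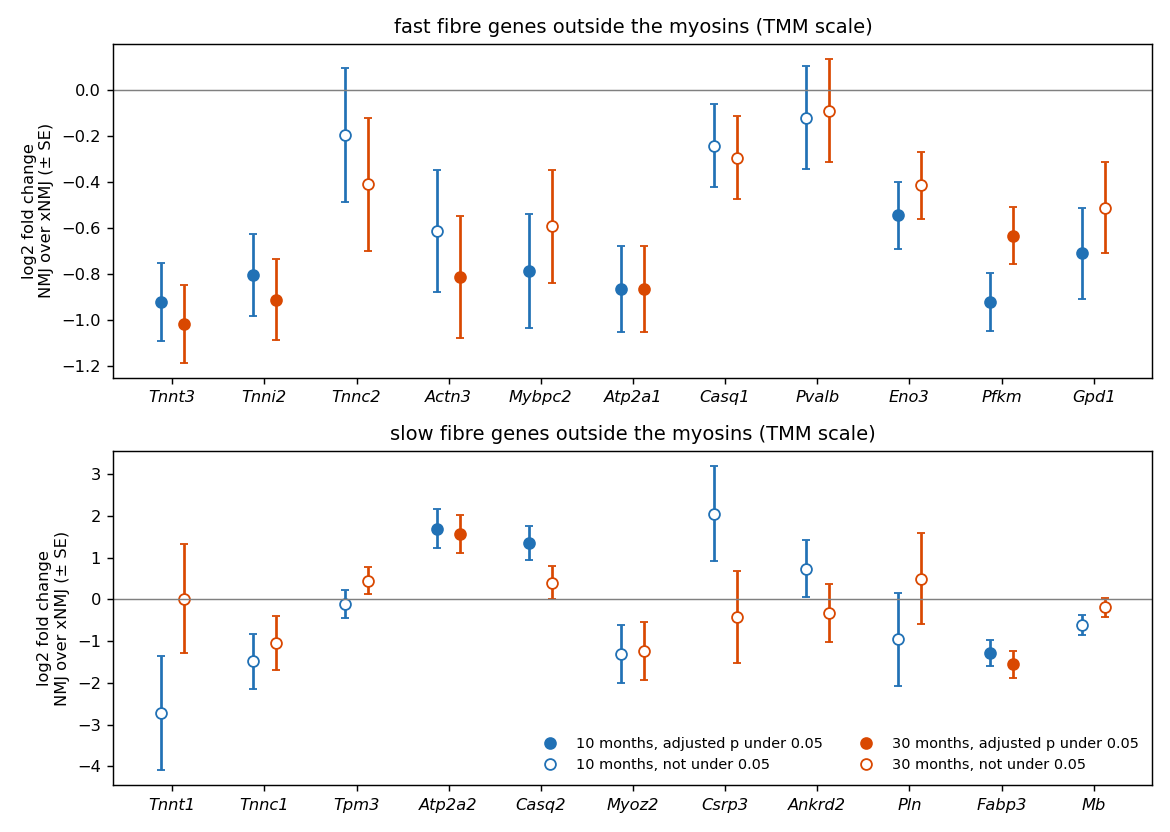
Log2 fold change of NMJ over xNMJ (± SE, edgeR with TMM, 8 libraries per group) for 11 fast and 11 slow fibre genes outside the myosins, at 10 months (blue) and 30 months (orange), filled where the adjusted p was under 0.05. The fast genes all lie below 0 on this scale, whereas the slow genes lie on both sides.

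Other thick filament genes were counted next. Of 21 further myosin and myosin-binding genes, 15 were tested, and Mybpc1, the slow-type myosin binding protein C, was the single one called, a share near that over all genes given above. It was lower at both ages (-1.11, SE 0.20, adjusted p = 2.0e-04 and -1.13, SE 0.20, adjusted p = 2.4e-04), and at 10 months its TMM-scaled groups did not overlap, but it was not called on library totals, where 3 others of the list (Myl12b, Myh14 and Myl6) were higher at both ages, beside 2659 (10 months) and 2687 (30 months) of all 13990 genes on that scale. The list median was 0.016 and -0.095 with TMM. Of 12 genes for myosin folding and thick filament assembly, 1 was higher at both ages, the chaperone Hsp90aa1 (0.95 and 0.79, adjusted p = 0.0077 and 0.035). At 10 months 4 were lower, namely Fbxo32, Trim54, Myom1 and Myom2, and at 30 months 0, beside 5.05% and 4.25% of all genes. Fbxo32, a ubiquitin ligase of muscle atrophy, had the largest of these changes (-1.05, SE 0.27, adjusted p = 0.0071). The list median was -0.24 and -0.26, and on library totals 3 genes were higher and 0 lower at each age, where 2659 and 2687 of all 13990 genes were higher. Ttn, the most abundant of the list, did not pass (-0.36 and 0.19).

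Among 24 fibre type regulators, 20 were tested, of which 3 were lower and 1 higher at 10 months and 1 was lower at 30 months, beside the shares of all genes given above. On library totals 6 and 8 were higher and 1 lower, where 2659 and 2687 of all 13990 genes were higher. The list median was -0.25 and -0.051 with TMM. Vgll2, a cofactor of the TEAD factors, was lower at both ages (-1.76, SE 0.34, adjusted p = 4.0e-04 and -1.72, SE 0.34, adjusted p = 7.0e-04) and remained called with library totals and fibre scaling. Ppargc1a, a coactivator of oxidative metabolism, was lower at 10 months on the TMM scale (-1.13, adjusted p = 0.044) and not called on library totals (-0.55, adjusted p = 0.30). Rcan1, a target of calcineurin, was higher at that age (1.10, adjusted p = 0.043). Mef2c, the most abundant regulator, did not pass (-0.11 and 0.10). Of the 8 general fibre genes, 4 were lower at each age on the TMM scale, namely Actc1, Ckm, Acta1 and Aldoa, beside 5.05% and 4.25% of all genes, and the list median was -0.41 at both ages. On library totals 0 were lower, where 210 and 76 of all 13990 genes were lower. The list of intrafusal fibre genes had 2 of 4 members tested and 0 called at either age, and neither had an unadjusted p under 0.05 in edgeR.

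Age was tested next, in each region. Between 30 and 10 months, 0 of the 8 genes passed in NMJ or in xNMJ in edgeR or DESeq2, and none had an unadjusted p under 0.05. In the background, 0% of all genes were called in NMJ (372 at an unadjusted p under 0.05, 1 called by DESeq2) and 0.0429% in xNMJ (1322 at an unadjusted p under 0.05, 84 called by DESeq2). In NMJ the log2 fold changes were -0.042 for Myh1 (SE 0.27), -0.025 for Myh4 (SE 0.21), 0.053 for Myh8 (SE 0.18), -0.046 for Mylpf (SE 0.20) and -0.35 for Myl1 (SE 0.23). In xNMJ they were -0.18 for Myh1 (SE 0.27), -0.25 for Myh4 (SE 0.21), -0.21 for Myh8 (SE 0.18), 0.34 for Mylpf (SE 0.20) and 0.046 for Myl1 (SE 0.23). The scarce slow chain Myh7 was the one with the largest estimates, 0.75 (SE 0.67) in NMJ and -1.08 (SE 0.68) in xNMJ. The latter turned to 0.32 without 10m xNMJ replicate 8. The region difference itself was compared between ages by the interaction of age and region, in which 0 of 8 myosin genes and 0% of all genes passed in edgeR (708 at an unadjusted p under 0.05, 9 by DESeq2). No gene of the fibre lists passed by age either. The interaction was 0.14 (SE 0.38) for Myh1, 0.26 (SE 0.26) for Myh8, -0.39 (SE 0.29) for Mylpf and 1.83 (SE 0.96) for Myh7. For Myh7 it was 0.43 without 10m xNMJ replicate 8, 0.85 with the replicate block and 0.40 in DESeq2.

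Finally, the genes most like each heavy chain were ranked by Pearson's r of log2 CPM over the 32 libraries with group means removed, for genes that averaged 10 CPM or more. The libraries share depth and tissue composition, and these values are given as a description. Myh1 was most like Myh13 (r = 0.90), Mybpc1 (0.83) and 9430073C21Rik (0.82). The counted Myh13 transcript, a superfast chain of eye muscles, had an implied length of 668 bases and shared 17.6% of its 31-base windows with other heavy chains. Myh4 was most like the calcium buffer Pvalb (0.83), Anapc5 (0.83) and the fast myosin binding protein Mybpc2 (0.78). Myh8 was most like the giant sarcomere genes Ttn (0.86) and Neb (0.83) and Acot13 (0.79). Myh2 was most like 9430073C21Rik (0.74), the heart-type lactate dehydrogenase Ldhb (0.69) and Hibadh (0.66). For Myh7 the closest genes reached no more than 0.60 (Scyl3), 0.58 (Ldhd) and 0.58 (Ube2j1).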

How the data were processed

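The 32 libraries were made by the authors with the SMART-Seq v4 kit and sequenced without strand information, and the submitters' processing notes name Cutadapt 1.9.1, kallisto 0.43.1 and GRCm38. Gene counts, as deposited, are whole and not normalized. The authors summed them over transcripts, dividing a read with several hits equally. TPM, also computed by the authors, scale these by transcript length and library total. The methods describe protein-coding transcripts of support level 1 to 3. Of 3197 protein-coding genes in GENCODE M21 without such a transcript, 1 was found in the tables, while 6247 genes of the tables are of other types. Implied lengths were count over TPM, calibrated on 6606 genes with 1 transcript (99.0% of 388 checked fell within 5%).

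Groups came from the sample labels. Counts were tested with edgeR 4.0.16 (R 4.3.3) by a quasi-likelihood fit of the 4 groups, TMM factors and genes with 1 CPM or more in 8 or more libraries. P values were two-sided, adjusted over 13990 genes, with a threshold of 0.05. In simulated counts for NMJ against xNMJ at 10 months, 134 of 200 genes changed 4-fold were recovered among 13990. Every simulated gene had the same dispersion, and rises and falls were balanced, unlike in these libraries. The recovery rate therefore does not tell how well changes of the myosin genes would be found. Heavy chain shares were tested by exact permutation, over 5 chains in place of the 6 planned, as Myh3 was not analysed here. Alternatives were DESeq2 1.42.0, other scalings, no filter, other samples, a replicate block, insert size as a covariate and leaving out each library. Library totals and the Myh2 length correction were added after the data were seen. Depth was 4026648 to 16516788 counts per library. Every list gene named was a called gene among the 4 largest changes of its list or its most abundant member, apart from Pvalb, Tnnt1, Tnni1, Myom2, Myl12b, Myh14, Myl6, Mybpc2 and the marker genes, which were chosen after their values were seen. One gene that this rule names is not reported here. The members and lists were chosen with earlier results of these data known.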

Additional observations from a re-analysis of the deposited data

Results flagged for a closer look

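Single libraries far from the other 7 of their group were looked for in 52 groups of values (log2 CPM of 8 genes and 5 heavy chain shares, in 4 groups each). Dixon's gap ratio exceeded its 95% critical value in 9 of them. Chance marks about 1 in 20 groups only where values are independent and normally distributed. The shares are parts of one sum and repeat genes of the log2 CPM values, so the number marked cannot be set against that rate. In 30m xNMJ, Myh4 was lowest in replicate 6, at 12.8 log2 CPM against 13.8 in the next library. In 10m xNMJ, replicate 8 was highest for Myh7, at 4.41 log2 CPM against 1.74, and for the Myh7 share, at 0.0696% against 0.0115%. In 30m NMJ, Myh8 was highest in replicate 5, at 8.17 log2 CPM against 7.33. Myl3 was lowest in 10m NMJ replicate 3, at 1.69 log2 CPM against 4.54. It was also lowest in replicate 8 of 30m xNMJ, at -1.18 log2 CPM against 4.43, and in replicate 8 of 30m NMJ, at -1.60 against 3.25. The Myh2 share was highest in 30m NMJ replicate 6, at 0.310% against 0.0992%. The Myh7 share was highest in 10m NMJ replicate 1, at 0.0230% against 0.00904%. The causes of these values were not tested.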

How the results depend on the processing

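The number of myosin genes called fell from 3 at 10 months and 2 at 30 months to 0 and 0 both with scaling to general fibre genes and on library totals. Leaving out 1 library gave 2 to 3 genes for the younger and 1 to 4 for the older mice, the lowest without 30m xNMJ replicate 2 and the highest without 30m NMJ replicate 5. It stayed at 0 for age and for the interaction in every setting tried. On library totals, values of opposite sign to TMM were, at 10 months, 0.018 for Myh4, 0.24 for Myl1 and 0.14 for Mylpf, and at 30 months 0.32 for Myh4 and 0.10 for Myh8. With fibre scaling they were 0.22 for Myh4, 0.46 for Myl1 and 0.32 for Mylpf at 10 months and 0.42 for Myh4, 0.22 for Myh8 and 0.030 for Myl1 at 30 months. Such settings shift all genes by construction. Age in xNMJ gave 0.34 for Myh7 with DESeq2 and ranged from -1.44 to 0.32 with 1 library left out. The Myh7 share difference at 10 months ranged from -0.0069 to 0.0030 points. Myl3 at 10 months also missed the threshold with DESeq2 size factors (-2.41), without the filter (-2.36), with insert size (-2.58) and with a replicate block (-2.05).

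Whether equal replicate numbers mark paired samples is not known from the labels. Correlations of same-numbered libraries were -0.0016 to 0.19 for the younger and -0.018 to 0.37 for the older mice, over 0.1 in 4 and 1 of 8 pairs. Their means were 0.089 and 0.081, against -0.013 and -0.011 for other pairs, and 4 of 8 libraries at each age correlated best with their own number, which is a hint from the data and not the design. With a replicate block, 4 genes were called at 30 months (Myh1, Myh8, Myl1 and Mylpf) and 2 at 10 months. In a sign-flip of same-numbered libraries (replicate block), 8 of 8 pairs at 30 months had a higher Myh4 share in NMJ (9.99 points, exact permutation p = 0.0078, adjusted p = 0.026), with -9.94 points for Myh1 and 0.0054 points for Myh7 at the same p. This adjustment covered the 5 chains in the region comparisons at both ages, fewer tests than the 20 of the unpaired shares.

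Depth limits Myh7, Myl2 and Myh2, whose counts were near the floor in many libraries.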
